A study of Mus musculus with 2 samples.

Results

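Mir483, Mir675 and Mir335 are the microRNA genes that lie inside the imprinted growth genes Igf2, H19 and Mest of the mouse. These 3 genes were chosen by their host gene from the 2202 microRNA genes in the deposited count tables. Small RNA was sequenced from the adrenal glands of 2 female mice of strain B6CASTF1/J at 10 days of age, a first-generation cross of the C57BL/6J and CAST/EiJ strains, for which the labels name no treatment. Both libraries belong to 1 group, replicate 1 from the animal numbered 3 and replicate 2 from the animal numbered 4. The labels give 1 donor entry for both, and it is from their different animal numbers that the libraries are taken as 2 mice. No other age, tissue or genotype was analysed here, and reads were not split by parental allele. The values are therefore levels in the whole gland at 1 age, set against the spread between 2 libraries.

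Genomic imprinting silences the copy of a gene that came from 1 parent. Igf2, a fetal growth factor, and Mest, which encodes a protein of the hydrolase fold, are active on the paternal copy, whereas the noncoding RNA H19 is active on the maternal copy and shares enhancers with Igf2. In mouse, these host genes belong to a set of imprinted genes that is highly expressed in fetal organs and declines after birth as growth slows. The microRNAs can be cut from the host transcripts, whose levels were not measured here. The product of H19 is known to repress the IGF1 receptor gene Igf1r in mouse placenta. Of the others, miR-335 is known in human tumour cells as a repressor of SOX4 and TNC. In human adrenocortical carcinoma, miR-483 is raised together with IGF2.

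The mature products are shown first because each member's seed, bases 2 to 8, decides which messages it can pair with. The sequences below are from RefSeq on GRCm38.p6, 5′ to 3′, with the seed in capitals.
miR-483-5p: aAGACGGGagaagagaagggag
miR-483-3p: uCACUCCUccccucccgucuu
miR-675-5p: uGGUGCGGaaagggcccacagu
miR-675-3p: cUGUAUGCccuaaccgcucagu
miR-335-5p: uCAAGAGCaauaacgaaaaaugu
miR-335-3p: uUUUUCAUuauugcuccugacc

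The 6 seeds were all different, and none was found in any other of the 1738 mature entries of the RefSeq table. Relaxing the match to bases 2 to 7 brought in 1 other product each for miR-483-3p, miR-335-5p and miR-335-3p. Their genes Mir3110, Mir7646 and Mir6986 were counted at no more than 0.623 CPM (counts per 1000000 counts assigned to microRNA genes) in either library. The longest run of bases shared by products of different members was 5. In 141767 annotated transcripts, the products of Mir483 and Mir335 matched no gene other than their own hairpin, and those of Mir675 matched only their hairpin and H19. Reads with several alignments were tallied apart from the genes in the deposited tables, which lowers numbered microRNA copies; no such copy of a member was found among the transcripts. The whole genome was not searched.

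The hairpins are shown with their mature products in capitals, because the deposited counts are per hairpin and do not separate these arms.
Mir483: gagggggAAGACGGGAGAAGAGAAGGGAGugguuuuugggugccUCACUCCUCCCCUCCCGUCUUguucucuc
Mir675: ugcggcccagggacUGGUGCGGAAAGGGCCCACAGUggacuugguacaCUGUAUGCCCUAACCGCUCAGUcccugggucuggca
Mir335: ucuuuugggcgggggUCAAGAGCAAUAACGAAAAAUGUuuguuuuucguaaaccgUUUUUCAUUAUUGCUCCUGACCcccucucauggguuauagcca

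The hairpins of Mir483 (73 bases, 58.9% G and C) and Mir675 (84 bases, 63.1%) were richer in G and C than that of Mir335 (98 bases, 42.9%). Among the 285 measured genes with a RefSeq hairpin, the median was 50% G and C. In that set 83.5% of hairpins had a lower value than Mir483, 92.3% a lower value than Mir675 and 21.1% a lower value than Mir335. Mir483 also had the most lopsided arms, with 95.5% purines in the 5p product and 9.52% in the 3p product. Predicted folding energies by RNAfold were -33.8, -56.0 and -44.3 kcal/mol for Mir483, Mir675 and Mir335. The annotated mature products were 21 to 23 bases long, nearly equal among the members. Lengths of the counted reads were not examined.

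In mm10 with the GENCODE M21 annotation, Mir483 (ENSMUSG00000070140.1) lies on the minus strand at chr7:142654924-142654996. It sits in an intron of all 7 Igf2 transcripts that span it, out of 9 annotated for the gene, and it is intron 2 in 6 of these. The annotation also places it in intron 3 of Gm49394, a protein-coding gene model over the same stretch. Mir675 (ENSMUSG00000076275.1) lies on the minus strand at chr7:142577064-142577147, within exon 1 of the H19 transcripts H19-202 and H19-205 and exon 2 of H19-206, and within intron 1 of H19-204. Mir335 (ENSMUSG00000065501.1) lies on the plus strand at chr6:30741299-30741396, within an intron of all 7 Mest transcripts that span it, out of 11. Mir675 and Mir483 are 77.8 kb apart. Mir675 is the one member that is exonic in a host transcript.

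**Figure D1:**
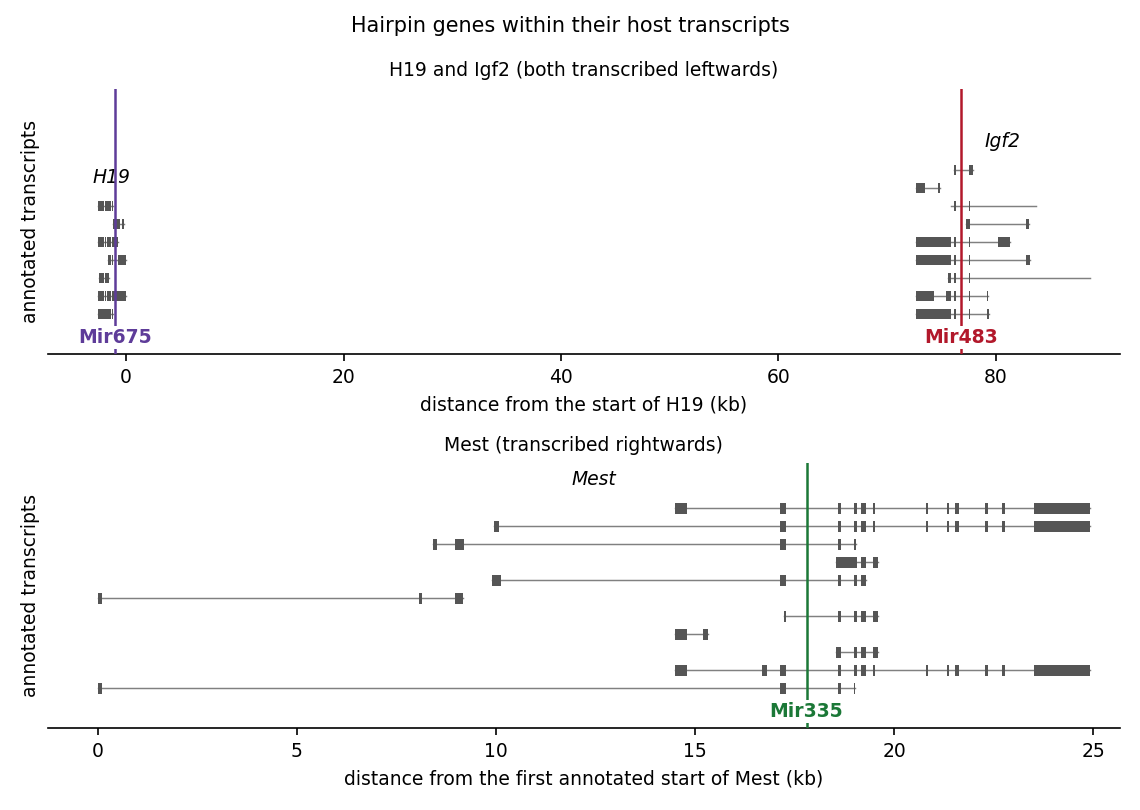
The map plots annotated transcripts (rows, with boxes for exons) of H19 and Igf2 above and of Mest below, by distance in kb from the H19 start or the first Mest start. Coloured lines mark the hairpins: Mir675 lies within H19 and Mir483 within Igf2, 77.8 kb apart, and Mir335 lies within Mest introns.

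The libraries held 2023410 (replicate 1) and 3208821 (replicate 2) counts assigned to microRNA genes, so that 1 count was worth 0.494 and 0.312 CPM. They differed by more than sampling noise (chi-square 510405 on 437 degrees of freedom). Genes with at least 10 CPM in either library are called measured below, 329 in all. Each member reached 10 CPM in both libraries.

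Mir335 was the most abundant member. It was counted 33378 times in replicate 1 and 49546 times in replicate 2, which is 16496 CPM (exact 95% interval 16321 to 16672) and 15441 CPM (15306 to 15576). It stood at rank 14 and rank 17 of all microRNA genes, and its mean share was 1.60% ± 0.0746 (SD, n = 2), or about 1 count in 60.6 and in 64.8. This level was 80.4 and 67.1 times the median of the measured genes. The animals differed little, and Mir335 exceeded 95.7% and 94.8% of the measured genes.

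Mir483 came next, with 6207 counts in replicate 1 and 3763 in replicate 2. These are 3068 CPM (exact 95% interval 2992 to 3145) and 1173 CPM (1136 to 1211), a mean of 2120 ± 1340 CPM (SD, n = 2). Its rank was 51 in replicate 1 and 80 in replicate 2. Replicate 1 was the higher library, and the SD came to 63.2% of the mean. Even the lower library placed Mir483 at 5.10 times the median measured gene.

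Mir675 was low, with 57 counts in replicate 1 and 72 in replicate 2. These are 28.2 CPM (exact 95% interval 21.3 to 36.5) and 22.4 CPM (17.6 to 28.3), a mean of 25.3 ± 4.05 CPM (SD, n = 2), at rank 269 and rank 280. The intervals of the libraries overlap. In both libraries Mir675 lay below the median measured gene, above 17.9% and 14.9% of the measured genes. Its counts stood clear of the limit that a count of 0 allows (3 counts), equal to 1.48 and 0.935 CPM.

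The order Mir335, Mir483, Mir675 held in both libraries, and no pair of intervals overlapped within a library. Per count of Mir483, Mir335 was counted 5.38 times in replicate 1 (5.23 to 5.53, exact 95% interval) and 13.2 times in the other library (12.7 to 13.6). Mir483 exceeded Mir675 108.9-fold (83.9 to 143.9) and 52.3-fold (41.4 to 66.9), although both lie in the same imprinted region. Mir335 exceeded Mir675 586-fold (452 to 773) and 688-fold (546 to 880). Counted per base of hairpin, Mir335 was at 4.01 and 9.81 times Mir483 and Mir483 at 125 and 60.1 times Mir675. The hairpins differ too little in length for this scaling to change the order. Of the counts on the 3 members together, Mir335 made up 84.2% and 92.8%. Levels of different microRNAs also carry the efficiency with which each is ligated and amplified, which was not measured.

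**Figure D2:**
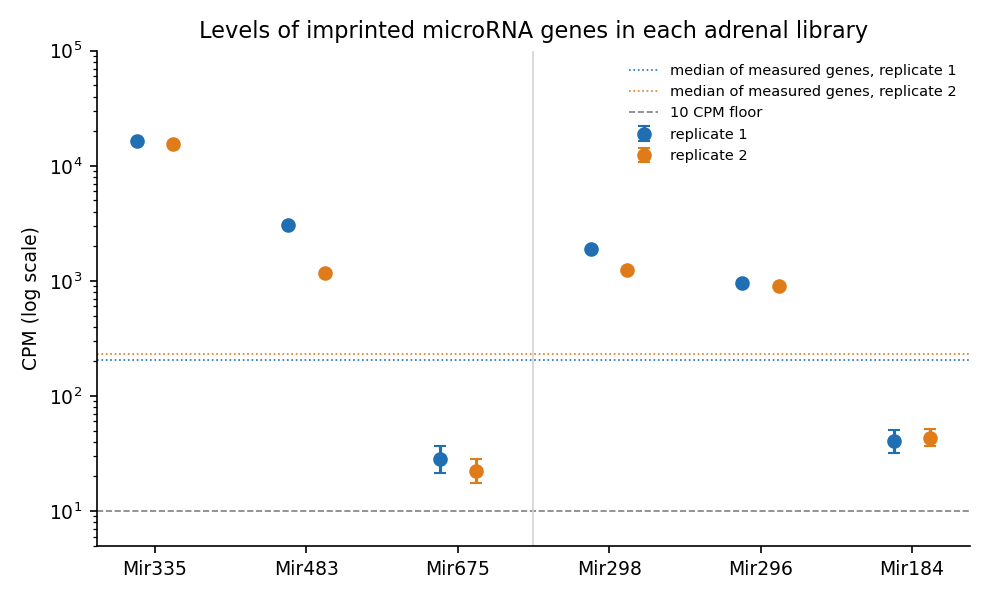
Each point is the level of a gene in 1 library in CPM on a log axis, with its exact 95% counting interval, for the 3 members (left) and for Mir298, Mir296 and Mir184 (right). Dotted lines mark the median measured gene: Mir335 and Mir483 lie above it and Mir675 lies below it in both libraries.

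No read of any member lay on the opposite strand in either library, and the counts irrespective of strand were the same as those on the strand of the gene. No annotated gene on the opposite strand overlapped a member. Among the neighbours within 1 Mb, Mir483 and Mir675 were the only measured genes on their stretch of chromosome 7. The other annotated genes there, Mir7063, Mir7064 and Mir3104, stood at no more than 1.56 CPM. Around Mir335, the sensory-organ microRNA Mir182 was counted at 1313 and 899 CPM, its cluster partner Mir183 at 126 and 102 CPM, and the collagen repressor Mir29a at 1610 and 792 CPM. Mir96 and Mir29b-1 stayed under 10 CPM in both, and Gm23049 had no count. Mir335 thus stood far above each of its neighbours in both libraries.

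Among all microRNA genes assigned here to an imprinted region, 192 in number, Mir335 ranked 2 in both libraries behind Mir127. Mir127, a maternally expressed microRNA antisense to Rtl1 of the Dlk1-Dio3 region, stood at 29138 and 23754 CPM, so that there were 56.6 and 65.0 counts of Mir335 per 100 of Mir127. Mir483 ranked 9 and 16 in this set, and Mir675 ranked 60 and 61. The whole set took 11.9% and 10.7% of counts. Mir335 made up 13.9% and 14.4% of that sum, Mir483 2.59% and 1.10%, and Mir675 0.0238% and 0.0210%.

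Parent of origin is taken for these genes from earlier work. It was not measured here and may not hold for each gene in the adrenal gland. The genes grouped as paternally expressed were Mir483, Mir335, Mir296 and Mir298 of the Gnas region, Mir184 and the genes within Sfmbt2. They took 2.36% and 2.03% of counts. Mir335 supplied 69.9% and 76.0% of that sum and Mir483 13.0% and 5.77%. The genes grouped as maternally expressed, which are Mir675 and the 67 genes between Dlk1 and Dio3, took 9.50% and 8.67%, of which Mir675 supplied 0.0297% and 0.0259%. Reads of near-identical copies within Sfmbt2 were left uncounted, so the paternal sum is no total.

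The other imprinted microRNAs outside the large clusters all lay between Mir335 and Mir675. Mir298 was counted at 1880 and 1235 CPM and Mir296 at 961 and 908 CPM, both below Mir483 in replicate 1. In replicate 2, Mir298 was slightly above Mir483. Mir184, known from brain and eye, was counted at 40.5 and 43.3 CPM, near Mir675. Of the 51 measured Dlk1-Dio3 genes, 7 exceeded Mir483 in replicate 1 and 13 did so in replicate 2.

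The libraries were compared gene by gene with the exact binomial test (two-sided, conditional on the gene's summed count), using library sizes scaled by edgeR's TMM factors and Benjamini-Hochberg adjustment over the 329 measured genes. It sets 2 libraries against counting error and compares no conditions, and a difference between mice cannot be told apart from one of library making. By this test 74.2% of the measured genes differed, with 37.7% of the measured genes higher and 36.5% lower in replicate 2. Among the members, Mir483 and Mir335 were called lower in replicate 2 and Mir675 was not called.

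Mir483 fell by 1.34 on the log2 scale from replicate 1 to replicate 2 (exact 95% interval -1.40 to -1.28), which is 2.53-fold. A change of at least 1 log2 unit downwards was seen in 11.2% of the measured genes, and Mir483 was the 1 member among them. Of the 329 genes, 22 had a lower log2 ratio still, and 47 had a larger one in absolute size. Among the 48 measured genes within 1 log2 unit of its mean CPM, 10 had a larger absolute log2 ratio, and the SD of their log2 ratios was 1.29. The difference of Mir483 was thus beyond counting error and within the range of genes of like abundance.

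Mir335 differed by -0.047 on the log2 scale (exact 95% interval -0.067 to -0.027, adjusted p = 6.96e-06 by the exact test). This is 1.03-fold, and 95.7% of the measured genes had a larger absolute log2 ratio. All 23 measured genes within 1 log2 unit of its mean had one. With DESeq2 size factors the value was -0.015 and the call was lost (adjusted p = 0.178 by the exact test). Mir675 differed by -0.27 on the log2 scale (exact 95% interval -0.80 to 0.25, adjusted p = 0.336 by the exact test). The interval holds falls as well as small rises.

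**Figure D3:**
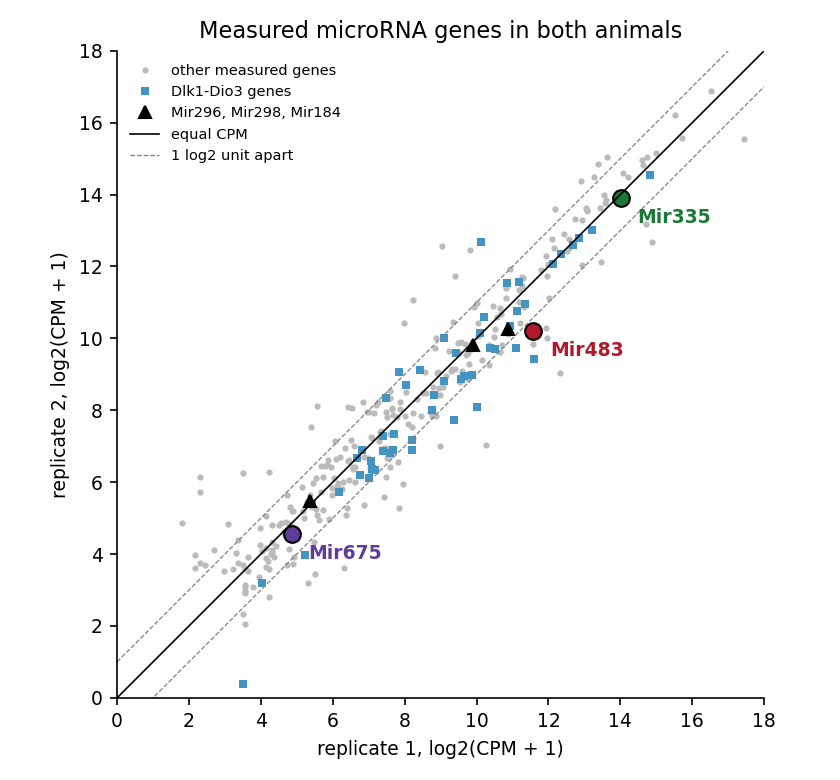
Each point is 1 of the 329 measured genes, by its log2(CPM + 1) in replicate 1 (horizontal) and replicate 2 (vertical), with the members as large circles, Dlk1-Dio3 genes as squares and Mir296, Mir298 and Mir184 as triangles. Mir335 and Mir675 lie between the dashed lines that mark 1 log2 unit, and Mir483 lies below the lower one.

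Ratios between members within a library need no scaling of library size. Across the 3 pairs, the ratio of Mir335 to Mir483 was 2.45 times higher in replicate 2 than in replicate 1 (exact 95% interval 2.35 to 2.56). The ratio of Mir483 to Mir675 was 0.480 of its value in replicate 1 (0.332 to 0.691, two-sided Fisher's exact test on the counts, p = 7.37e-05 adjusted over the 3 pairs). The ratio of Mir335 to Mir675 was 1.18 times its value in replicate 1 (0.815 to 1.69, p = 0.370 by the same exact test). Mir483 thus differed between the libraries by more than either other member, Mir675 of the same imprinted region included.

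**Figure D4:**
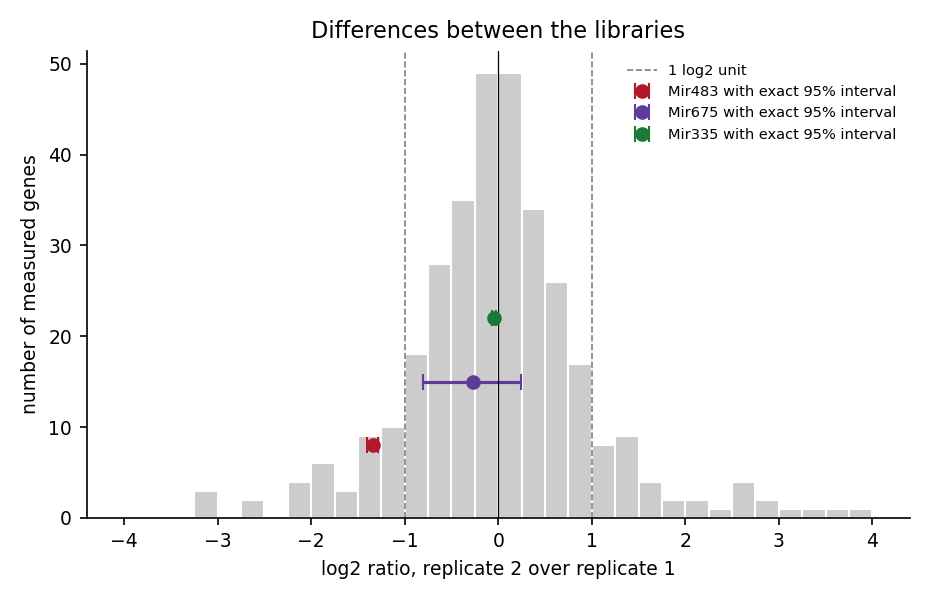
The histogram counts the 329 measured genes by log2 ratio of replicate 2 over replicate 1, and coloured points mark the members with exact 95% intervals, placed at arbitrary heights. Mir483 sits beyond the dashed line at -1, while the interval of Mir675 spans 0 and that of Mir335 is narrow and close to 0.

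The genes nearest in level in the 2 libraries were found by the Euclidean distance of log2(CPM + 1), over 2 points for each gene. For Mir483 these were Mir15b (3895 and 1246 CPM, distance 0.36), Mir214 (3057 and 914 CPM, 0.36) and Mir15a (3996 and 1025 CPM, 0.43). For Mir675 they were Mir6516 (28.7 and 23.4 CPM, distance 0.06), Mir365-2 (27.2 and 20.9 CPM, 0.11) and Mir1949 (24.7 and 22.1 CPM, 0.18). For Mir335 they were Mir99b (12367 and 14723 CPM, distance 0.42), Mir30d (12270 and 13892 CPM, 0.45) and Mir99a (11915 and 16204 CPM, 0.47).

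The liver and striated muscle lists, like Mir483, were lower in replicate 2, a shared direction between only 2 libraries. Mir122 of hepatocytes, the 1 liver marker, stood at 26733 and 9284 CPM, a log2 ratio of -1.48. There were 11.5 and 12.6 counts of Mir483 per 100 of Mir122, and 27.4 and 26.2 per 100 of the striated muscle marker Mir206. The 8 striated muscle markers summed to 11315 and 4507 CPM, almost all from Mir206 (11177 and 4480 CPM). The 4 that were measured were all called lower in replicate 2, as were 36.5% of all 329 measured genes. Only 2 of these 4 reached 10 CPM in both libraries, and Mir1a-1 and Mir133a-2 were at 0, though reads shared between numbered copies went uncounted.

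The sums of further lists were also lower in replicate 2, though not every gene in them. Over all 329 measured genes, 36.5% were called lower and 37.7% higher. The kidney list summed to 410 and 214 CPM, with 2 of its 3 measured genes lower and Mir204 higher, at 57.8 and 96.3 CPM. Of 3 listed red blood cell symbols 2 were found, Mir144 and Mir451a, which summed to 594 and 290 CPM and were both lower. The listed Mir486a was not found under that symbol, and the gene annotated as Mir486 was left out of the sum. Mir486 stood at 58.8 and 30.2 CPM and was also called lower. The endothelial markers Mir126a and Mir126b summed to 177732 and 47928 CPM. The 4 mesenchymal markers summed to 3138 and 1018 CPM, led by Mir214, and Mir202 of the gonad was counted at 81.5 and 32.7 CPM. Of the 3 measured mesenchymal genes 2 were lower and Mir199b was higher, at 53.9 and 86.6 CPM. The part of these cells or tissues in the difference of Mir483 was not tested. In the whole gland, fewer cells of a type and less microRNA per cell cannot be told apart.

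Other lists, unlike Mir483, summed higher in replicate 2. The markers listed for the adrenal medulla and neuroendocrine cells, with 3 of 5 listed symbols found in the annotation, summed to 28006 and 34779 CPM. Mir375 led this list at 24805 and 31924 CPM. Mir7b (2333 and 2081 CPM) and Mir137 (869 and 774 CPM) were each called lower by 0.12 on the log2 scale. Mir7a-1 and Mir7a-2 were not found under those symbols, and the genes annotated as Mir7-1 and Mir7-2 were left out of the sum. Mir7-1 stood at 159 and 166 CPM, not called, and Mir7-2 at 46.0 and 32.7 CPM, called lower. Both smooth muscle markers and all 5 leukocyte markers were higher in replicate 2, summing to 28429 and 39314 CPM and to 2455 and 4308 CPM. For comparison, 37.7% of all 329 measured genes were called higher. The 4 genes of the brown fat list summed to 99145 and 125370 CPM, of which Mir378a made up most (94651 and 120608 CPM). This sum, resting on 1 gene, is not a measure of brown fat. Genes of the list for the adrenal medulla and neuroendocrine cells were thus counted in this tissue labelled as adrenal gland. Whether they came from the medulla was not tested, and no microRNA that defines the cortex was listed.

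**Figure D5:**
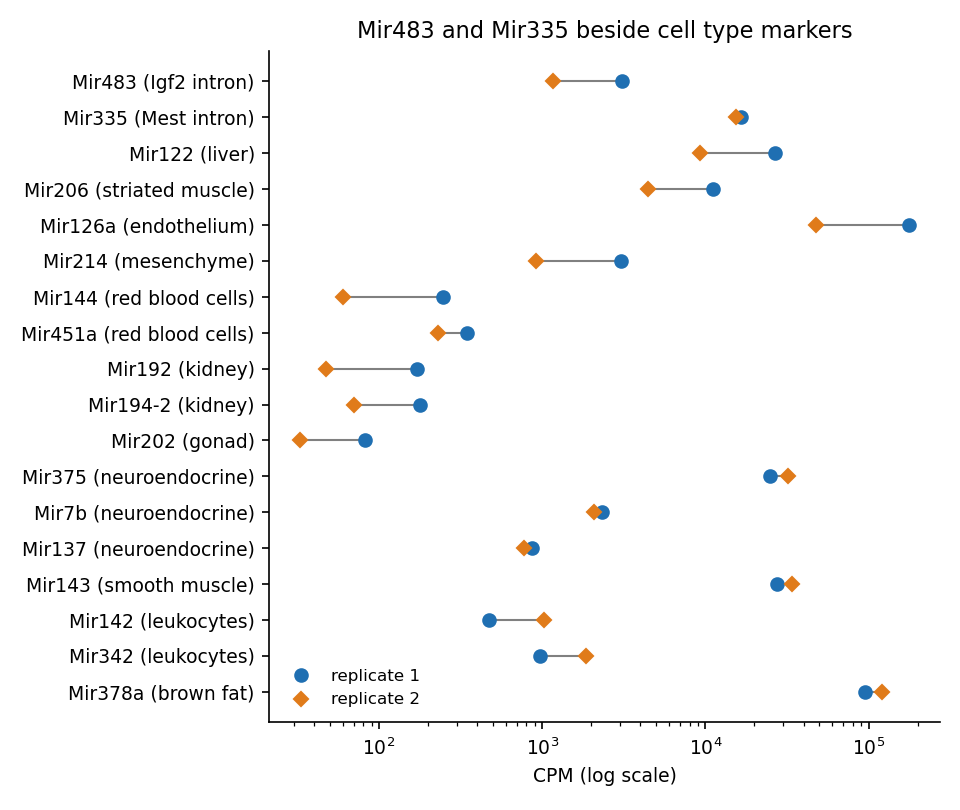
Circles and diamonds are the CPM of replicates 1 and 2 on a log axis for Mir483, Mir335 and 16 genes of the marker lists, each labelled with its host or list. Mir483 shifts leftwards in replicate 2 as do Mir122, Mir206, Mir126a, Mir214, Mir144, Mir451a, Mir192, Mir194-2 and Mir202, genes chosen after their levels were seen, whereas Mir335 barely moves; Mir204 and Mir199b of the kidney and mesenchymal lists, which were higher in replicate 2, are not plotted.

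Growth-related microRNA lists give the setting at 10 days. The let-7 genes, which accumulate as tissues mature and repress fetal growth regulators such as Lin28 and Hmga2, took 15.5% and 19.04% of counts, with all 12 at 10 CPM or more in both libraries. In replicate 2, 11 of the 12 were called higher and 1 lower (median log2 ratio 0.51), against 37.7% higher and 36.5% lower over all 329 measured genes. Per 1000 let-7 counts there were 106 and 81.1 counts of Mir335, 19.8 and 6.16 of Mir483 and 0.182 and 0.118 of Mir675. These proportions also carry the higher let-7 share of replicate 2. Copies of let-7 lost shared reads, so these proportions are upper values for the members. The early-embryo list of the Mir290 to Mir295 and Mir302 clusters took 0.0129% and 0.0189%, with 4 of 14 genes at 10 CPM or more in both libraries, among them Mir294 at 40.5 and 48.9 CPM. Mir675 was thus at the level of single genes of that list.

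The X-linked cluster of Mir322 and Mir503, linked to the cell cycle and muscle growth, took 2.75% and 3.05%, led by Mir322 at 19026 and 22827 CPM. Mir335 was below Mir322 in both libraries. The miR-17/92 cluster and its paralogs, known to drive proliferation, took 1.54% and 1.86% of counts, led by Mir93 (4399 and 7008 CPM) and Mir17 (4533 and 5876 CPM). Mir335 alone, at 1.65% and 1.54%, was above that whole list in replicate 1 and below it in replicate 2. Over all 329 measured genes, 124 (37.7%) were called higher and 120 (36.5%) lower in replicate 2, with a median log2 ratio of -0.0052. Against this, 5 of the 12 measured genes of the miR-17/92 list were higher and 5 lower (median log2 ratio -0.19), close to the shares over all genes. Of the 7 genes of the Mir322 cluster, 2 were higher and 2 lower (median 0.00069). Of 51 measured Dlk1-Dio3 genes, 12 were higher and 32 lower (median -0.35), and 4 had a lower log2 ratio than Mir483.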

How the data were processed

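The authors counted reads per microRNA gene in each library separately and deposited raw counts in 3 columns: irrespective of strand, on the strand of the gene and on the opposite strand. Build mm10 is named per the labels, and GENCODE M21 in the readme deposited with each table. For the aligner and counter: not given in the sources used here. The column on the strand of the gene was used, without its 4 summary lines, which held 61.7% and 62.5% of the reads (unmapped, with several alignments, outside microRNA genes). CPM was computed over all assigned counts.

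Intervals are exact Clopper-Pearson 95% intervals. They cover counting error only, and not the spread between animals or from library making. The labels name no molecular identifiers, so amplified copies of 1 molecule could not be told apart and the intervals may be too narrow. Log2 ratios (replicate 2 over replicate 1) used TMM-scaled sizes (edgeR 4.0.16) and a pseudocount of 1 CPM, and understate differences of low genes. Their intervals have no pseudocount. Genes with at least 10 CPM in either library were tested by the exact conditional binomial test, called at an adjusted p below 0.05. The test was tried on simulated counts with sampling noise alone, which lack the wider spread seen between these libraries. Alternatives were plain totals, DESeq2 1.42.0 size factors, other totals, strands, floors and pseudocounts, thinning, and leaving out a replicate. RNAfold was ViennaRNA 2.7.2; other steps ran in Python 3.11.15 with SciPy 1.17.1.

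All 2202 identifiers matched M21. Genes named are the members, their 3 nearest genes in level, measured genes within 1 Mb, the other imprinted genes, the leading genes of each list and the markers. The members and lists were chosen with earlier results of these data known, and the parental grouping and the genes plotted beside Mir483 were chosen after levels were seen.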

Additional observations from a re-analysis of the deposited data

How the results depend on the processing

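The log2 ratios of the 3 members kept their direction under all 6 alternatives each. Mir483 stayed called, between -1.40 and -1.31, and Mir675 stayed uncalled, between -0.40 and -0.20. Mir335 lost its call with DESeq2 size factors (-0.015), where the scaling moved the median of all measured genes from -0.0052 to 0.027. Leaving out a replicate gave 1173 to 3068 CPM for Mir483, 22.4 to 28.2 CPM for Mir675 and 15441 to 16496 CPM for Mir335. Levels depend on the total they are divided by. Mir483, Mir675 and Mir335 moved to 2954, 34.5 and 21652 CPM irrespective of strand, to 2532, 29.9 and 18810 CPM without the most abundant gene, and to 1117, 13.2 and 8333 CPM with all mapped reads as total. The ratio of Mir335 to Mir675 went from 635 to 544 per base of hairpin. Irrespective of strand, mean shares rose to 11.2% for Dlk1-Dio3, 0.180% for Sfmbt2, 0.346% for the other imprinted genes, 22.0% for let-7, 2.28% for miR-17/92 and 3.92% for the Mir322 cluster. Without the most abundant gene they rose to 10.7% for Dlk1-Dio3, 20.3% for let-7, 1.99% for miR-17/92 and 3.41% for the Mir322 cluster. Genes at least 1 log2 unit apart numbered 73, against 131 with no floor and 48 at a floor of 100 CPM, where more or fewer genes are tested. No paired analysis was possible because there is 1 group. Depth limits Mir675, whose 57 and 72 counts leave a wide interval.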
